A study of Homo sapiens with 12 samples.

Results

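The widest H3K9me3 peaks of SMARCA3 knockout (KO) and wild-type (WT) 293T cells are described here. They were chosen by their width, as every peak on chromosomes 1 to 22 whose bases numbered 5000 or more, and are called wide peaks. The KO list held 290 of them among 61828 peaks on these chromosomes, and the WT list held 109 among 42985. That makes 399 of the 112068 peaks of both lists, all sequences included. The series profiled H3K9me3 by ChIP-seq (sequencing of chromatin fragments bound by an antibody) in 12 libraries, with 3 ChIP and 3 input libraries per genotype. KO cells carry a knockout of SMARCA3, whose current symbol is HLTF and which encodes a DNA translocase with a ubiquitin ligase domain. WT cells carry no such knockout, and both are 293T, a human embryonic kidney line with the SV40 large T antigen. The labels name no treatment, and no source used here says whether the KO cells are 1 clone. The deposited files are 2 peak lists, 1 per genotype, so read depth is unknown here and no difference between KO and WT has a replicate check. Shares have Wilson 95% intervals, which cover counting only. Where a count of 0 is said to allow a share, that limit is instead 3 divided by the number counted.

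H3K9me3 is the trimethyl mark on lysine 9 of histone H3. It is written by SUV39H1, SUV39H2 and SETDB1 and bound by the HP1 proteins, and it marks pericentromeric repeats, silenced transposons and some gene clusters. Among genes it is best known for covering the C2H2 zinc finger genes, a large family of DNA-binding proteins that often lie side by side, most densely on chromosome 19. In most of these genes the last exon encodes the zinc fingers, and the KRAB type recruits TRIM28 and, through it, SETDB1 to transposons. A ChIP-seq peak is the stretch over which a caller finds signal above background, so its width depends on the extent of the mark and on where the caller breaks or joins the signal.

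To show what lay under and beside the wide peaks, promoter sequences were taken from RefSeq (GRCh38.p14), each from 250 bases before a start to 50 after it. CG dinucleotides, the sites of DNA methylation in vertebrates, are in capitals (CG reads the same on both strands). Of 33725 listed promoters, 6 lay wholly inside a KO wide peak and 2 of these also inside a WT one. Those 2 belong to noncoding RNAs antisense to the zinc finger gene ZNF32, and UTP14C, shown next, lay inside a KO wide peak only. ZNF551 and ZFP37 are shown beside them as C2H2 genes with a KO wide peak in the gene body. Of such genes with a known strand, their starts lay closest to that peak without being covered. Wide peaks wholly outside the gene body were not counted for this choice.
ZNF32-AS1 (chr10:43643622-43643921, plus strand): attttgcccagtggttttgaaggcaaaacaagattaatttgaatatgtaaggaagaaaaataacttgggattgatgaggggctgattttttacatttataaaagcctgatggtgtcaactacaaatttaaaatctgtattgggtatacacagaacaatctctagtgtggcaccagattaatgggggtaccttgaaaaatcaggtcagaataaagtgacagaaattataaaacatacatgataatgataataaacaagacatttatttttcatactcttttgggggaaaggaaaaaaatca
ZNF32-AS2 (chr10:43645692-43645991, plus strand): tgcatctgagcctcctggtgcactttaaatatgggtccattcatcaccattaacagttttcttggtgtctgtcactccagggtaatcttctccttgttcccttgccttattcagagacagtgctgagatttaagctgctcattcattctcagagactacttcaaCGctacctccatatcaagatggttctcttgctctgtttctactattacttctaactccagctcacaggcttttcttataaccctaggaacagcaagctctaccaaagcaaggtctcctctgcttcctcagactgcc
UTP14C (chr13:52024441-52024740, plus strand): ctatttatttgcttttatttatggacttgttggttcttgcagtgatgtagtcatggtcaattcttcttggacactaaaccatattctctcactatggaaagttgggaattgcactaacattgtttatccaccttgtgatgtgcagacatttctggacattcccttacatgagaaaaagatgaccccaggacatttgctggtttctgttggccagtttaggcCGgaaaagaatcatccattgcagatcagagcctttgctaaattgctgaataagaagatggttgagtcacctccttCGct
ZNF551 (chr19:57681727-57682026, plus strand): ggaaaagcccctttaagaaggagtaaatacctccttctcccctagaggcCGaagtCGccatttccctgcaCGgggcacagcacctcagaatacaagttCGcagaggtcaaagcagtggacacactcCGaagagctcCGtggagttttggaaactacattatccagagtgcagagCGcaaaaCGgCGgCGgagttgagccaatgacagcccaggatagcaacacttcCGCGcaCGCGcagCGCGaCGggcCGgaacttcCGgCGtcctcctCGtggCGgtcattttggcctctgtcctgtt
ZFP37 (chr9:113056675-113056974, minus strand): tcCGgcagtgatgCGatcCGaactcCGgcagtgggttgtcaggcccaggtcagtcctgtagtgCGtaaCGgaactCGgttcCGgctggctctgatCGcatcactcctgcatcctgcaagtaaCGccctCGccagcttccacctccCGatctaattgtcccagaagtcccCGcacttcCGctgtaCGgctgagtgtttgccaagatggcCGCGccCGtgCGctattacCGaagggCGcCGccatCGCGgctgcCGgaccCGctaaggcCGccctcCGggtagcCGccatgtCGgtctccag

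The 3 promoters under wide peaks held few CG dinucleotides, with 0 in ZNF32-AS1, 1 in ZNF32-AS2 and 2 in UTP14C, against 22 in ZNF551 and 30 in ZFP37. The 6 promoters inside KO wide peaks had a median of 1.5 (0 to 6), and all listed promoters had a median of 14. Promoters of C2H2 genes with a KO wide peak had a median of 22 (2 to 51, 111 promoters). The median was also 22 over all 605 promoters of C2H2 genes, so it does not set those with a wide peak apart. At least 1 CG dinucleotide was present in 96.0% of all listed promoters, so its presence alone sets none of these apart.

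Of 1657 miRNA genes in the RefSeq table, 2 had their mature sequence inside a wide peak, and they are printed with the seed (bases 2 to 8) in capitals. MIR4273 lies within the zinc finger gene ZNF717 and was inside a wide peak of both lists. MIR1299, in the pericentromeric part of chromosome 9, was inside a WT wide peak only, where the KO list had 3 narrower peaks over 94.5% of the span. The 2 seeds differ.
hsa-miR-4273 (chr3:75738290-75738307, plus strand): gUGUUCUCugauggacag
hsa-miR-1299 (chr9:40929010-40929031, minus strand): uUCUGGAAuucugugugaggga

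The first question was how much of the called H3K9me3 lay in wide peaks in each genotype. Wide peaks were few in both lists and took a larger part of the KO list. They made up 0.469% (0.418 to 0.526) of KO peaks and 0.254% (0.210 to 0.306) of WT peaks. By bases they held 4.58% of the KO list (2.30 of 50.2 Mb) and 2.71% of the WT list (0.828 of 30.5 Mb). The ratio of KO to WT was 2.66 for the number of wide peaks, beside 1.44 for all peaks. The ratio grew with width, from 1.29 for peaks under 500 bp through 1.46 (500 to under 1000 bp), 1.69 (1000 to under 2000 bp) and 2.24 (2000 to under 5000 bp) to 3.06 for peaks of 10000 bp or more, of which there were 49 in KO and 16 in WT. Width chose these peaks, so the ratios are descriptions.

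Within the chosen peaks the widths of the lists were alike. In KO the median was 6412 bp (quartiles 5568 and 8249, range 5001 to 62714) and in WT it was 6283 bp (quartiles 5561 and 8200, range 5012 to 22535). Fold enrichment, the authors' value for each peak, had a median of 6.29 (1.78 to 23.4) in KO and 6.83 (1.51 to 18.6) in WT. All peaks on these chromosomes had a median fold of 3.59 in KO and 3.77 in WT. A low fold did not bar a peak from being wide, since 40 of the 290 KO peaks (13.8%) and 16 of the 109 WT peaks (14.7%) were below 3.69, the median of both lists together, applied to each list as a common limit. Across wide peaks the rank correlation of width and fold was 0.205 in KO (n = 290) and 0.296 in WT (n = 109), over peaks of the same libraries.

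The threshold cut through a continuous range. The KO peaks nearest to it were 4971, 4981 and 4999 bp on the outside and 5001, 5020 and 5020 bp on the inside, and one of those inside was a peak of fold 3.47 at ZNF317. In WT they were 4970, 4988 and 4997 bp outside, in ZNF782, PTGFR and PCDH9, with folds of 7.68, 7.32 and 10.4. The WT peaks just inside were 5012, 5051 and 5054 bp, the middle one in GPC6.

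The 5 widest KO peaks lay in zinc finger genes or where no gene is annotated. The widest KO peak covered 62714 bp of an intergenic part of chromosome 19 (24325488 to 24388201) at fold 6.89. Over it the WT list had 7 peaks, of which 3 were wide (18087, 16071 and 21861 bp), and together they covered 94.1% of it. The next KO peak, 35699 bp on chromosome 10 (41880451 to 41916149) at fold 22.2, met 5 WT peaks, 3 of them wide, over 98.4% of its bases. The third, 31726 bp at fold 5.52 over the zinc finger gene ZNF721 on chromosome 4 (432879 to 464604), met 8 WT peaks, 2 of them wide, over 96.5%. In these 3 places the WT list marked nearly the same bases in more pieces.

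The next 2 KO peaks were covered less. A KO peak of 29734 bp on chromosome 21 (10699820 to 10729553) at fold 7.99 met 23 WT peaks, the widest of 1614 bp, and they covered 63.9% of it. A KO peak of 23464 bp in ZNF678 on chromosome 1 (227565249 to 227588712) at fold 4.28 met 12 WT peaks, 1 of them wide, over 79.7%.

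The 5 widest WT peaks each met a KO wide peak. The first covered 22535 bp of ZNF678 (227644102 to 227666636) at fold 6.44, where the KO list had 1 peak of 22714 bp at fold 9.76. The second and the fourth, of 21861 and 18087 bp, lay under the widest KO peak. The third covered 21300 bp of IGK, the immunoglobulin kappa light chain locus on chromosome 2 (89787222 to 89808521), at fold 8.26, and the KO peak there had 21292 bp at fold 8.30. The fifth, 17932 bp of ZNF721 at fold 9.84, lay under the KO peak of 31726 bp.

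**Figure D1:**
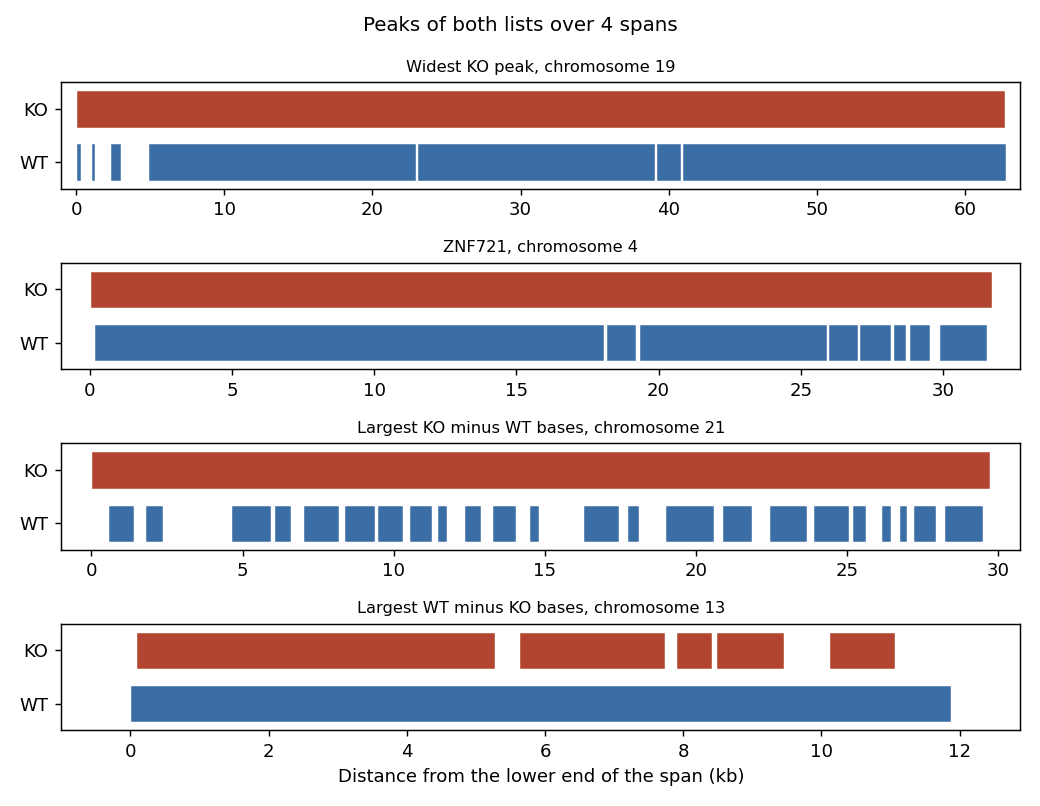
Peaks of the KO list (upper row, red) and the WT list (lower row, blue) over 4 spans, drawn to scale as blocks against distance from the lower end of the span in kb; thin white lines mark peak edges and are wider than the shortest gaps. The 62714 bp KO peak of chromosome 19 and the 31726 bp KO peak of ZNF721 stand over long WT blocks, the 29734 bp KO peak of chromosome 21 stands over 23 short ones, and the 11881 bp WT peak of chromosome 13 stands over 5 KO peaks.

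Peaks of highest fold among the wide ones lay outside genes. In KO they were on chromosomes 20 (31057626 to 31066574, fold 23.4), 10 (fold 22.2, named above), 5 (49656264 to 49662028, fold 19.99), 10 (41842725 to 41866125, fold 17.1) and 1 (125160791 to 125171199, fold 16.9). The WT list had a wide peak of fold 18.6 at the same place on chromosome 20 and peaks of fold 18.5, 15.1 and 12.2 overlapping the 2 KO stretches of chromosome 10. The WT wide peak next in fold, of 12.0, lay on chromosome 4 (49151605 to 49157016). The highest folds of the KO and WT lists thus fell in the same pericentromeric places on chromosomes 20 and 10.

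The second question was what the list of the other genotype held over each wide peak. No wide peak of either list stood where the other list had nothing, and KO wide peaks mostly stood over several narrower WT peaks. Of the 290 KO wide peaks, 86 (29.7%, 24.7 to 35.2) met a WT peak of 5000 bp or more, 194 (66.9%, 61.3 to 72.1) met several narrower WT peaks, 10 (3.45%, 1.88 to 6.23) met 1 narrower WT peak and 0 met none, which allows a share of up to 1.03%. Of the 109 WT wide peaks, 95 (87.2%, 79.6 to 92.2) met a wide KO peak, 13 (11.9%, 7.10 to 19.3) met several narrower ones, 1 met 1 narrower one and 0 met none, which allows up to 2.75%. No WT wide peak met more than 1 KO wide peak, so at most 109 of the 290 KO wide peaks could meet one. The contrast between the lists therefore follows in part from their unequal numbers of wide peaks. Over all peaks of a list, 49.7% of KO peaks met a WT peak and 81.6% of WT peaks met a KO peak.

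Meeting the other list rose with width across the whole lists, so it does not set wide peaks apart from other long ones. From under 500 bp to 5000 bp or more, the share met was 27.4, 54.6, 84.4, 97.9 and 100% in KO and 70.7, 90.3, 98.2, 99.9 and 100% in WT. A longer peak also has more bases at which to meet another. By bases, WT peaks covered 82.0% of the KO wide peaks and KO peaks covered 98.0% of the WT wide peaks. The median KO wide peak was covered to 85.4% and the median WT wide peak to 100%. Cover of 90% or more was reached by 102 KO wide peaks (35.2%) and by 103 WT wide peaks (94.5%). The least covered peaks stood at 14.6% in KO and 77.7% in WT.

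The gaps inside KO wide peaks were short in the WT list. Over the 194 KO peaks with several narrower WT peaks there were 782 WT peaks, with 588 gaps between them. The median gap was 239.5 bp, 463 gaps (78.7%) were under 500 bp and the longest was 3360 bp. Over the 13 WT peaks with several narrower KO peaks there were 41 KO peaks and 28 gaps, with a median of 147 bp, and every gap was under 500 bp. Among all neighbouring peaks on these chromosomes, 27.9% of gaps in the KO list and 26.6% in the WT list were under 500 bp, and the smallest in either list was 51 bp. A gap inside a wide peak cannot be longer than that peak, while gaps of a whole list have no such limit. Short gaps under wide peaks thus follow in part from how they were counted. When peaks closer than 1000 bp were joined first, the share of wide KO peaks over several narrower WT peaks was 34.6%, and when a single WT peak over 50% of the span counted as 1 wide peak, 51.0% of KO wide peaks were of that kind.

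The KO peaks over wide WT peaks were wider and of higher fold than those over several narrower ones. Their median width was 7862.5 bp (n = 86), beside 6034.5 bp (n = 194), and their median fold was 7.43, beside 5.94. A wider KO peak has more bases at which to meet a wide WT peak. The difference in width thus follows in part from how the classes were set. The 10 KO peaks over 1 narrower WT peak had a median of 5267.5 bp and a fold of 4.11. In 7 KO peaks the WT list had 2 or more wide peaks, and the reverse was found in 0 WT peaks.

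**Figure D2:**
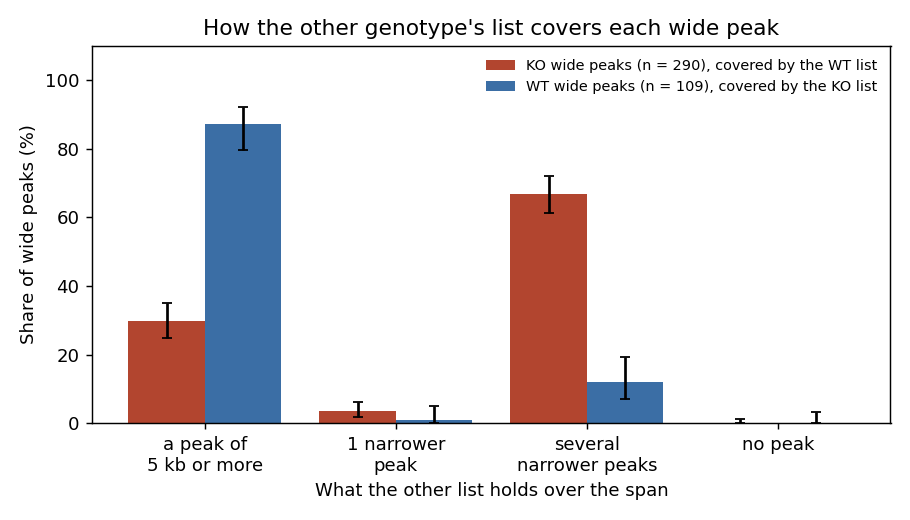
Share of KO wide peaks (red, n = 290) and WT wide peaks (blue, n = 109), in percent, by what the other genotype's list held over the same bases; error bars are Wilson 95% intervals over peaks. Several narrower WT peaks stood under 66.9% of KO wide peaks, a wide KO peak stood under 87.2% of WT wide peaks, and no wide peak lacked a counterpart. The WT list has fewer wide peaks, which limits how many KO wide peaks could meet one.

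A few KO wide peaks stood almost alone. The least covered was an intergenic peak of 5263 bp on chromosome 13 (85697237 to 85702499) at fold 2.46, with a single WT peak over 14.6% of it. Next came a peak on chromosome 12 (34415453 to 34422630) at 19.1%, one in LINC00448 on chromosome 13 (62708018 to 62714481) at 26.9%, one at LINC00283 on chromosome 13 (102742667 to 102748705) at 28.0% and one of 9468 bp on chromosome 19 (24296850 to 24306317) at 28.9%. Of these 5, only the peak at LINC00283 met a protein-coding gene, LRTM3. They were picked after their cover was seen.

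Joining overlapping wide peaks of both lists gave 304 spans, in which the bases of all peaks could be set side by side. In 204 spans only the KO list had a wide peak, in 86 both had one and in 14 only the WT list had one. KO peaks covered 2398 kb of all spans in 354 peaks, and WT peaks covered 1999 kb in 1018 peaks. The ratio of covered bases was 1.20, below the 1.65 of the whole lists. The KO list had more bases in 277 spans and fewer in 27. In the 86 spans wide in both, the totals were 917.6 kb in KO and 863.9 kb in WT (ratio 1.06), and in 68 of them the lists were within 10% of each other. In the 204 spans wide in the KO list only, KO peaks covered 1405 kb in 204 peaks and WT peaks 1053 kb in 792 peaks. The larger difference between KO and WT in these spans was in the number of pieces, which the choice by width favours.

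**Figure D3:**
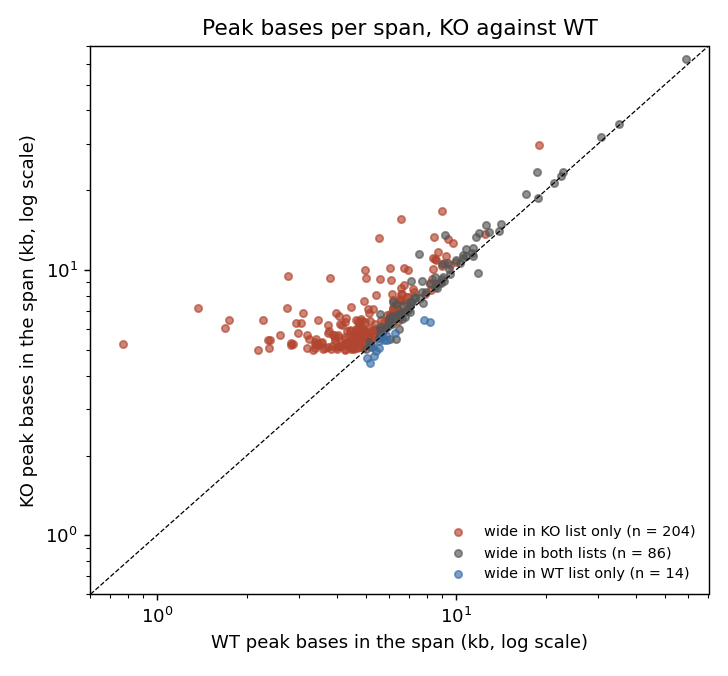
Bases covered by KO peaks (vertical axis) and WT peaks (horizontal axis) in each of 304 spans, in kb on log scales; each point is a span, the dashed line marks equal cover, and colour gives the list in which the span was wide. Most of the 86 spans wide in both lists lie near the line. The 204 wide in the KO list only lie above it and the 14 wide in the WT list only lie below it, sides that the choice by width favours.

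In 79 places 1 KO wide peak met exactly 1 WT wide peak and no other wide peak. The KO peak was wider in 64 pairs and the WT peak in 15, with a median difference of 725 bp. Median width in these pairs was 7576 bp for the KO peaks and 6302 bp for the WT peaks. In 49 pairs the KO peak reached past the WT peak at both ends, in 7 pairs the WT peak did so, and in 15 pairs both ends lay within 200 bp. The depth of the libraries behind each list is unknown, and its part in these widths was not tested.

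Spans with the most added bases in KO were mostly on chromosome 21. The 4 with the largest differences lay there, at 10699820 to 10729553 (29734 bp in KO and 19000 bp in WT), 7941720 to 7957334 (15615 and 6542 bp), 7915893 to 7929129 (13237 and 5522 bp) and 10683044 to 10699740 (16697 and 9014 bp). The fifth was the span of chromosome 19 from 24296850 to 24306317 (9468 bp in KO and 2738 bp in WT). All 5 are intergenic in the authors' annotation. Chromosome 21 had 10 wide peaks in KO (3.45%, close to its 3.64% of all KO peaks) and 0 of the 109 in WT, which allows up to 2.75% and so includes its 1.49% of all WT peaks. In 1 run of 87.5 kb there (10651449 to 10738952), the KO list had 6 peaks, all wide, and the WT list had 68 narrower ones.

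Spans with fewer bases in KO differed by smaller amounts. The largest was at LINC00376, a noncoding gene on chromosome 13 (63275193 to 63287073), where a WT peak of 11881 bp at fold 2.66 met 5 KO peaks with 9764 bp. Next were 2 intergenic spans of chromosome 13, at 65016518 to 65024717 (6372 KO bases and 8200 WT bases) and 64561911 to 64569719 (6500 KO bases and 7809 WT bases). The fourth lay in RNASEH2B, a subunit gene of ribonuclease H2 (5488 bp in KO and 6285 bp in WT). The fifth lay in ZSCAN30, a C2H2 zinc finger gene on chromosome 18 (4450 bp in KO and 5167 bp in WT). Of the 14 spans wide in the WT list only, 7 were on chromosome 13.

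The third question was where wide peaks lie. They were spread unevenly over chromosomes, and unevenly between the lists. Chromosome 19 held 58 of the 290 KO wide peaks (20%, 15.8 to 24.98) and 13 of the 109 WT ones (11.9%, 7.10 to 19.3), beside 7.75% of all KO peaks and 5.35% of all WT peaks. At a width of 10000 bp or more the order of the lists was the other way round, with 20.4% of 49 KO and 31.2% of 16 WT wide peaks on this chromosome. Of those WT peaks, 3 lay under the single widest KO peak, so this order rests on few places. Chromosome 1 held 37 in KO (12.8%, beside 9.82% of all KO peaks) and 10 in WT (9.17%, beside 12.1% of all WT peaks). Chromosome 12 held 17 in KO (5.86%, beside 4.24%) and 5 in WT (4.59%, beside 4.60%). On 3 chromosomes the numbers of the lists were close. Chromosome 13 held 26 in KO (8.97%, beside 7.18% of all KO peaks) and 21 in WT (19.3%, beside 8.88% of all WT peaks). Chromosome 9 held 14 in KO (4.83%, beside 3.19%) and 12 in WT (11.01%, beside 3.21%), and chromosome 18 held 7 in KO (2.41%, beside 1.99%) and 6 in WT (5.50%, beside 2.09%). Without chromosome 19 the ratio of KO to WT wide peaks was 2.42 (232 and 96 peaks), and without chromosome 13 it was 3 (264 and 88 peaks).

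**Figure D4:**
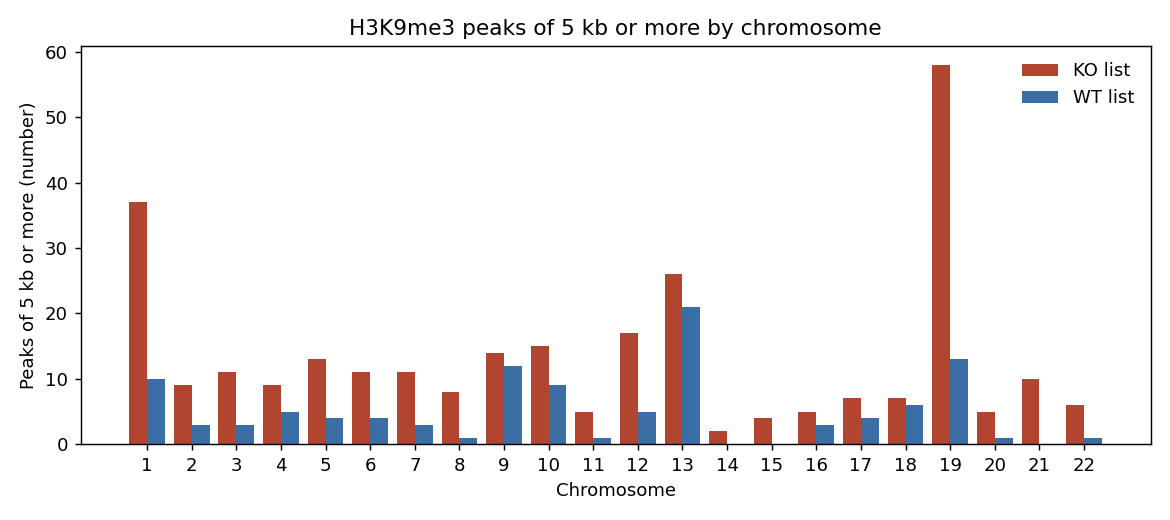
Number of wide peaks on each of chromosomes 1 to 22 in the KO list (red, left bar) and the WT list (blue, right bar). Chromosome 19 has 58 in KO and 13 in WT, chromosome 13 has 26 in KO and 21 in WT, and chromosome 21 has 10 in KO and 0 in WT.

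Many wide peaks of chromosome 13 lay away from genes. In no annotated gene were 14 of its 26 in KO and 14 of its 21 in WT, beside 28.6% of all KO and 32.1% of all WT wide peaks. The share over all peaks of chromosome 13 was not counted, so this location cannot be read as a trait of its wide peaks. The lowest folds of wide peaks in both lists were on this chromosome, 1.78 in KO (62136793 to 62144154) and 1.51 in WT (61873429 to 61878637). Between 64340202 and 68059686, a stretch that contains the cell adhesion gene PCDH9, the KO list had 7 wide peaks with 42.4 kb and the WT list had 10 with 63.2 kb. In the same stretch the KO list had more peaks of any width, 856 beside 660 in WT.

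Some wide peaks came in runs. When wide peaks of either list within 1 Mb of each other were grouped, 143 groups resulted, of which 73 held 1 wide peak. A KO and a WT wide peak over the same bases count separately, so some of the other groups are a single place. Narrower peaks were not grouped for comparison. The 12 groups with 5 or more KO wide peaks held 102 KO and 36 WT wide peaks. The fullest lay at the far end of chromosome 19's long arm (56398233 to 58265283), with 14 in KO and 2 in WT over zinc finger genes such as ZNF134, ZNF416, ZNF544 and ZNF551. Another on chromosome 19 (36511912 to 37569460) had 13 in KO, 86.2 kb in all, over genes such as ZNF260, ZNF345, ZNF420, ZNF567 and ZNF829, and 0 in WT. One more on this chromosome (11683474 to 12539146) had 6 in KO and 0 in WT. Narrower WT peaks were present in both stretches without a wide one. Peaks of any width numbered 546 in KO and 346 in WT in the first, and 258 in KO and 149 in WT in the second.

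Of the groups on other chromosomes, some held wide peaks of both lists, while the one on chromosome 21 described above held them in KO only. On chromosome 12 (132920428 to 133208974) 10 KO and 5 WT wide peaks covered ZNF605, ZNF26, ZNF84, ZNF140, ZNF891, ZNF10 and ZNF268. On chromosome 5 (178871157 to 179083273) 7 KO and 3 WT wide peaks covered ZFP2, ZNF354B, ZNF354C, ZNF454 and ZNF879. On chromosome 10 (41842725 to 43647999) there were 9 in KO and 8 in WT, from the pericentromere to ZNF32.

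The authors placed most wide peaks within genes. Their gene body class held 157 KO wide peaks (54.1%) and 56 WT wide peaks (51.4%), against 42.4% of all KO peaks and 45.0% of all WT peaks. Their classes outside genes held 93 in KO (32.1%, 27.0 to 37.6) and 43 in WT (39.4%, 30.8 to 48.8), against 47.7% of all KO peaks and 46.5% of all WT peaks. Their promoter classes held 40 in KO (13.8%) and 10 in WT (9.17%). Of the 40 in KO, 23 were in the class farthest from the start, which the authors name for 3 kb. Over all peaks the promoter classes held 9.92% in KO and 8.57% in WT.

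By the RefSeq gene table, C2H2 zinc finger genes were the largest single setting in both lists. Gene bodies of this family were met by 114 KO wide peaks (39.3%, 33.9 to 45.0) and 44 WT wide peaks (40.4%, 31.6 to 49.8), beside 5.47% of all KO peaks and 5.27% of all WT peaks. The shares of the lists were close at this width, and at 7500 bp or more they were 52.1% in KO (94 peaks) and 34.4% in WT (32 peaks). Other protein-coding genes were met by 60 in KO (20.7%) and 16 in WT (14.7%), and noncoding genes or pseudogenes alone by 33 in KO (11.4%) and 14 in WT (12.8%). No annotated gene lay under 83 in KO (28.6%) and 35 in WT (32.1%). For these settings other than C2H2 genes the share over all peaks was not counted. Their shares therefore cannot be read as traits of wide peaks. Below 5000 bp the share at C2H2 genes was far lower in both lists. In KO it was 4.74% under 500 bp, 5.38% from 500 to under 1000 bp, 5.64% from 1000 to under 2000 bp and 8.34% from 2000 to under 5000 bp. In WT it was 4.88, 5.05, 5.42 and 9.25% over the same widths. The widest class, 10000 bp or more, had 55.1% in KO (49 peaks) and 31.2% in WT (16 peaks).

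At C2H2 genes the 114 KO peaks had a median width of 6920.5 bp and the 44 WT peaks one of 6309.5 bp. Of these KO peaks, 39 (34.2%, 26.1 to 43.3) met a wide WT peak, and of the WT peaks 41 (93.2%, 81.8 to 97.7) met a wide KO peak. Away from C2H2 genes the shares were 26.7% (47 of 176) in KO and 83.1% (54 of 65) in WT. Chromosome 19 supplied 54 of the 114 KO peaks and 10 of the 44 WT peaks at these genes.

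Among genes, the family stood out by count. A wide peak lay in 153 of 19122 protein-coding genes in KO (0.8%) and in 54 in WT (0.282%), with 49 genes in both, 104 in KO alone and 5 in WT alone. C2H2 genes supplied 94 of the 153 in KO and 38 of the 54 in WT. That is 16.9% (14.0 to 20.2) of the 556 C2H2 genes in KO and 6.83% (5.02 to 9.24) in WT. Genes outside the family by symbol, RBAK and KLF12 among them, had 59 in KO (0.318% of 18566) and 16 in WT (0.0862%). A peak of any width lay in 365 C2H2 genes in KO and 334 in WT, and in 4212 genes outside the family in KO and 3684 in WT. Inside and outside the family alike, the lists differed more in how many genes had a wide peak than in how many had any peak.

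The other 9 gene lists had no wide peak in either list. They were clustered protocadherins (53 genes), olfactory receptors (391), keratin-associated proteins (94), UDP glucuronosyltransferases (21), histones (80), POTE and ANKRD genes (70), golgins (36), NBPF genes (14) and the H3K9 methylation machinery with SMARCA3 itself (17). Of all genes outside the C2H2 list, only 0.318% had a wide peak in KO and 0.0862% in WT. The upper Wilson 95% limits of these counts of 0 ran from 0.973% for olfactory receptors to 21.5% for NBPF genes. The counts of 0 therefore do not set these families apart from other genes. Narrower peaks were present in some of them. Clustered protocadherins, which encode neuronal adhesion proteins, had a peak in 24 genes in KO (45.3%) and 19 in WT (35.8%), and 7 of the 17 H3K9 methylation genes had one in KO (41.2%) and 3 in WT (17.6%). Over all protein-coding genes the share was 23.9% in KO and 21.01% in WT.

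ZNF678, a C2H2 gene of chromosome 1 (227563556 to 227679669, plus strand), had the most wide-peak bases in both lists. The KO list had 8 wide peaks in it with 90750 bp, and the WT list had 2 with 28636 bp. The 8 KO peaks ran almost end to end, with widths of 23464, 8832, 5272, 5459, 6787, 8074, 10148 and 22714 bp and folds of 4.28, 2.06, 3.19, 2.35, 2.78, 2.47, 4.48 and 9.76 from the start of the gene towards its end. The 2 WT wide peaks, of 6101 and 22535 bp, lay under the first and the last of them. Counting every width, the KO list had 17 peaks with 110721 bp in the gene and the WT list 48 peaks with 91719 bp, so the bases differed less than the pieces.

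Other C2H2 genes among those with the most wide-peak bases in KO also had more there than in WT. ZNF721 had 30570 bp in 2 wide peaks in KO and 17574 bp in 2 in WT. ZNF717 had 26951 bp in 3 in KO and 13646 bp in 2 in WT, and ZNF782 had 22559 bp in 2 in KO and 5097 bp in 1 in WT. On chromosome 12, ZNF891 had 22175 bp in KO and 16866 bp in WT, with 2 wide peaks each. ZNF268 and ZNF10, neighbours of ZNF891, had 19552 and 18440 bp in KO, in 2 wide peaks each, and no wide peak in WT. Both still had WT peaks, 11 in ZNF268 with 18793 bp and 16 in ZNF10 with 18160 bp, where the KO list had 8 with 27879 bp and 10 with 26037 bp. ZNF121 had 1 wide peak in each list, 19391 bp in KO and 13532 bp in WT. ZNF184 had 15702 bp in 2 in KO and 10176 bp in 1 in WT.

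A few C2H2 genes had more wide-peak bases in WT, among them ZFP37 and ZNF551. Counting peaks of every width, each gene named in this paragraph had more bases in KO, such as 17328 bp against 16521 bp in ZFP37. ZFP37 on chromosome 9 had 12652 bp in KO and 15063 bp in WT, with 2 wide peaks each. Its second WT peak, of 8761 bp, met KO peaks of which only 1 was wide, at 5591 bp. ZNF551, whose promoter is printed above, had 6813 bp in KO at fold 6.13 and 7013 bp in WT at fold 3.88. ZNF267 had 6520 bp in KO against 7802 bp in WT, ZNF599 had 3729 bp in KO against 4934 bp in WT, and ZNF300 had 5318 bp in KO against 6200 bp in WT, with 1 wide peak each in both lists. At ZNF267, ZNF599 and ZNF300 the whole KO wide peak was the wider one, and part of it lay outside the gene. Its width was 10019 bp against 8740 bp in WT at ZNF267, 5967 against 5285 bp at ZNF599, and 7272 against 6200 bp at ZNF300. ZNF84, also among the genes with the most wide-peak bases in WT, had 13376 bp in KO and 12015 bp in WT.

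Outside the family, DNAH14 had the most wide-peak bases in both lists. DNAH14, an axonemal dynein heavy chain gene, had 22111 bp in 3 wide peaks in KO and 14764 bp in 2 in WT. KLF12, a transcriptional repressor gene of chromosome 13 with its own zinc fingers, had 11495 bp in KO and 12285 bp in WT. PCDH9 had 10794 bp in KO and 11612 bp in WT, with 2 wide peaks each, among 156 peaks of any width in KO and 130 in WT. TUG1, first known as a noncoding RNA gene, was the most even of those named, with a single peak of 10601 bp at fold 6.95 in KO and 10335 bp at fold 5.41 in WT over nearly its whole length. KCNQ1, a potassium channel gene that holds the imprinted antisense RNA KCNQ1OT1, had 2 wide peaks of 5688 and 8245 bp in KO and none in WT, where 4 and 6 narrower peaks covered 87.0 and 88.2% of them.

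The 5 genes with a wide peak in WT alone were ZNF239 and ZSCAN30, both C2H2 genes, DTNA, which encodes a dystrobrevin, QKI, which encodes an RNA-binding protein, and GPC6, which encodes a glypican. Their WT peaks were short for wide peaks, 5411, 5167, 5554, 5895 and 5051 bp in that order. KO peaks covered 91.6, 86.1, 91.6, 92.3 and 92.3% of them.

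The last question was where along a gene wide peaks lie. In C2H2 genes they lay towards the end and never over the start. With the strand known for 87 C2H2 genes with a KO wide peak and 36 with a WT one, 0 had the start of the gene body under it, which allows up to 3.45% in KO and 8.33% in WT. None of the other starts listed for C2H2 genes was covered either. Distances from a start were taken only to wide peaks that met the gene body. A wide peak wholly before the start, as at ZNF583 in KO, was left out. So counted, the shortest distance was 597 bp in KO against 711 bp in WT, both at ZNF551. Next in KO was ZFP37, with 600 bp against 815 bp in WT. Over genes the median of these distances was 12817 bp in KO against 13694 bp in WT. The gene end was covered in 40 of the 87 in KO (46.0%, 35.9 to 56.4) and in 12 of the 36 in WT (33.3%, 20.2 to 49.7).

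With each gene body cut into 10 equal parts from start to end, the share of C2H2 genes with a wide peak was 14.9% in part 1, 34.5% in part 5 and 74.7% in part 9 in KO, and 11.1, 30.6 and 69.4% in the same parts in WT. In other protein-coding genes with a wide peak and a known strand the share was 18.9% in part 1 and 20.8% in parts 5 and 9 in KO (53 genes). Over all parts it ran from 11.3% in part 10 to 32.1% in part 4. In WT it was 21.4% in part 1, 7.14% in part 5 and 35.7% in part 9, over 14 genes, too few to read a course from. A wide peak fills more parts of a short gene than of a long one, and gene lengths were not matched. The levels of C2H2 and other genes therefore cannot be compared. At a width of 2000 bp or more, a start lay under a peak in 2 of 223 C2H2 genes in KO and in 1 of 131 in WT.

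**Figure D5:**
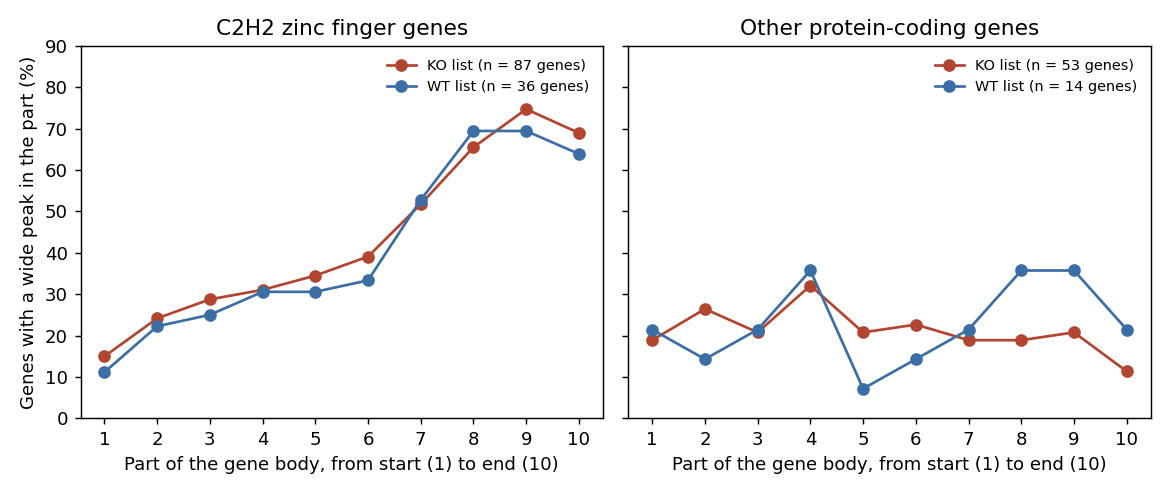
Percent of genes with a wide peak in each of 10 equal parts of the gene body, from the start (1) to the end (10), for C2H2 zinc finger genes (left panel) and other protein-coding genes (right panel), in the KO list (red) and the WT list (blue). In C2H2 genes the share is 14.9% in KO and 11.1% in WT in part 1 and 74.7% in KO and 69.4% in WT in part 9. In the other genes it moves between 11.3 and 32.1% in KO (53 genes) and unevenly between 7.14 and 35.7% in WT (14 genes). Gene lengths were not matched, so the levels of the panels cannot be compared.

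A start was covered rarely elsewhere too. Among protein-coding genes with a wide peak, UTP14C, a gene for a ribosome assembly protein on chromosome 13, was the only one with the start of its body under a KO wide peak, and none was in WT. The KO peak there had 5456 bp at fold 4.52, and 4 WT peaks, the widest of 905 bp, covered 43.8% of it. An inner start of SH3YL1 on chromosome 2 also lay under a KO wide peak, of 5255 bp at fold 4.59, of which 3 WT peaks covered 54.5%. At the 2 noncoding RNAs antisense to ZNF32 a single wide peak covered both starts in each list, 6593 bp at fold 6.15 in KO and 5986 bp at fold 7.14 in WT.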

How the data were processed

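H3K9me3 ChIP-seq and input libraries of KO and WT 293T cells were grouped by the genotype in the labels, and the deposited data are 2 peak lists, 1 per genotype. Reads were aligned with HISAT2 to hg38, per the submitters' processing notes. No source used here gives the peak caller, its settings or how the 3 libraries per genotype were combined. The authors' fold enrichment, named as a fold in the file headers, was read as a ratio, used to describe and rank peaks within a list, and as a common limit for both lists at their joint median, and the authors' deposited q-value of each peak served only to order ties. Depth is unknown, no sample has a column of its own, and no p-value was computed.

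Positions were counted from 1. Wide peaks of 1 list were set against all peaks of the other list by an overlap of 1 bp or more. Genes came from RefSeq (GRCh38.p14). Of 182 gene names that the authors gave to wide peaks, 150 equal a current symbol, and 150 of these overlap in both sources. Strand came from the promoter table, for 144 of 158 protein-coding genes with a wide peak. A peak over overlapping genes counts for each. The C2H2 list goes by symbol (ZNF, ZFP, ZIM, ZIK, ZSCAN, ZKSCAN), so KLF12 is not in it. Analyses ran in Python 3.11.15 with pandas 2.3.3, numpy 2.4.6 and scipy 1.17.1, tested on simulated peak lists.

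Named were the 5 widest peaks and the 5 of highest fold per list, the 3 on each side of 5000 bp, the 5 spans with the largest difference in bases each way, and the 10 protein-coding genes with the most wide-peak bases in each list. Genes named beyond this, such as TUG1, KCNQ1 and SH3YL1, were chosen after their values were seen. The members and gene lists were chosen with earlier results of these data known. Alternatives were other widths, fold limits, lists of equal length, joined peaks, other rules of overlap and the authors' gene column.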

Additional observations from a re-analysis of the deposited data

Results flagged for a closer look

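Wide peaks also occurred on sequences outside chromosomes 1 to 22, which the counts above leave out. On chromosome X the KO list had 14 (124.8 kb) and the WT list had 5 (36.8 kb), although all peaks on X numbered 2749 in KO and 3467 in WT. Of the 14 in KO, 3 met a wide WT peak and 11 met several narrower ones. On unplaced sequences the KO list had 21 wide peaks (179.2 kb, the widest 36533 bp) and the WT list had 7 (43.5 kb), among 572 peaks in KO and 424 in WT. Of the 21 in KO, 7 met a wide WT peak, 10 several narrower ones, 3 a single narrower one and 1 none. No input or control list was used here, so these are values with no background beside them.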

How the results depend on the processing

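No paired analysis was possible because the files hold 1 peak list per genotype and no column per replicate, and leaving out a replicate was not possible for the same reason. Of 130 values under alternatives, 92 stayed close to the reported ones. Which list had the larger share changed with width in a pair of cases. Chromosome 19 held more of the KO than of the WT wide peaks at 5000 bp, but 20.4% of KO and 31.2% of WT ones at 10000 bp. The WT share there rests on 16 peaks, of which 3 lay under 1 KO peak of this chromosome. C2H2 genes held close shares at 5000 bp, but 52.1% in KO and 34.4% in WT at 7500 bp, and 55.1% in KO and 31.2% in WT at 10000 bp. These WT shares rest on 32 and 16 peaks. The ratio of KO to WT wide peaks stayed between 2.21 (peaks closer than 1000 bp joined) and 3.06 (width of 10000 bp), and was 2.39 with lists of equal length.

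Counts moved with the width by construction. KO and WT wide peaks numbered 560 and 210 at 4000 bp, 94 and 32 at 7500 bp, 49 and 16 at 10000 bp, and 1319 and 598 after joining. A wide WT peak stood over 22.3% of KO wide peaks at 7500 bp, 24.5% at 10000 bp, 35.6% after joining and 51.0% where 1 peak over 50% of the span counted as wide. Several narrower WT peaks stood over 75.5% at 7500 and at 10000 bp, 59.2% with folds at or above the median of both lists, 34.6% after joining, 48.6% under the 50% rule and 57.9% with only the WT list held to that fold. No WT peak stood over 2.00% with that fold limit, 4.93% after joining and 4.83% with the WT list held to it, and after joining the median KO wide peak was covered to 61.9%. For WT wide peaks, a wide KO peak stood over 93.8% at 10000 bp and 95.4% under the 50% rule, several narrower ones over 6.25% and 4.59%, and none over 3.67% with lists of equal length and 4.59% with the KO list held to the fold. At 10000 bp, 38.8% of KO wide peaks and 50.0% of WT ones lay outside genes (50.0% in WT also at 7500 bp). C2H2 genes held 29.3% of KO wide peaks and 33.8% of WT ones at 4000 bp. The causes of these moves were not tested beyond the width, the joining and the fold limit themselves. Starts of C2H2 genes were covered at 2000 bp only, in 2 genes in KO and 1 in WT, a width chosen after seeing the data, as were the counts without chromosomes 19 and 13. Peak lists hold no depth, so a gap in a list cannot be told apart from signal that fell short of the caller's threshold.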
